A study of Mus musculus with 12 samples.

Results

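The 9 genes described here, Pik3ca, Pdpk1, Akt1, Akt2, Tsc1, Tsc2, Rheb, Mtor and Rptor, encode the core of the PI3K and mTOR signalling pathway. They were chosen by name for this function, and all 9 were found among the 24259 gene symbols of the expression table. Transcripts were sequenced from germinal vesicle (GV) oocytes, the fully grown oocytes arrested in meiotic prophase, of WT and Lsm14b-KO mice. LSM14B is an RNA-binding protein of oocytes, and the KO mice were homozygous for a reporter-tagged insertion allele of its gene on a C57BL/6J background. Mice of both genotypes were 3 weeks old and were primed with 5 IU of PMSG, a gonadotropin that stimulates follicle growth, 46 h before the oocytes were collected. Lysates of pooled oocytes, 1500 per gradient in the description of the study, were spread over sucrose gradients. Fractions 1 to 10 formed the RNP pool, which holds mRNA outside polysomes, and fractions 11 to 28 formed the polysome pool, which holds mRNA loaded with several ribosomes. Each of the 4 combinations of genotype and pool had 3 libraries.

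PI3K phosphorylates a membrane lipid to which the kinases PDPK1 and AKT bind, and PDPK1 activates AKT there. AKT phosphorylates TSC2 and so relieves the brake that the TSC1-TSC2 complex puts on the small GTPase RHEB. GTP-bound RHEB activates mTOR in the RPTOR-containing complex mTORC1, which promotes protein synthesis. In the ovary the pathway is known for its role in the activation of primordial follicles and in oocyte growth.

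Values are FPKM, fragment numbers corrected for how long a transcript is and how many fragments its library mapped, so levels of different genes are given per length. Whether transcripts of different lengths were captured equally well was not tested. FPKM gives a transcript's share within its own pool, and a difference between pools is therefore one of shares and not of amounts. The libraries held an estimated 4.84 to 7.86 M fragments (M, mega). In KO polysome replicate 2 the 10 highest genes took 34.7% of the summed FPKM, led by Mir300, against 11.6 to 14.7% in the other libraries. Lsm14b itself was listed at 11.3 to 15.3 FPKM in WT and 0 to 0.260 FPKM in KO polysomes, and at 27.4 to 34.6 FPKM in WT and 0 to 0.893 FPKM in KO RNP. All 9 oocyte markers of the marker list, such as Gdf9 and Zp3, were at or above 1 FPKM in every library. The summed FPKM of 10 granulosa and cumulus cell markers was 75.0 to 96.4 in KO against 21.9 to 73.0 in WT polysomes, and 38.7 to 59.5 in KO against 26.6 to 32.0 in WT RNP. Of these, Inha was at 39.4 to 51.4 FPKM in KO and 0 to 9.58 FPKM in WT polysomes, Inhba at 3.72 to 11.9 and 0 to 0.252 FPKM, and Fshr at 3.14 to 6.74 and 0 to 0.70 FPKM, while Cyp19a1 overlapped between genotypes and Foxl2 and Amhr2 were listed at 0 in every polysome library. The granulosa sum moved with genotype, and its part in the KO and WT values below was not tested. In such bulk samples fewer cells of a type and less RNA per cell cannot be told apart.

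Rheb was the most abundant of the 9 transcripts in each of the 4 groups and Rptor had the lowest mean, though its libraries overlapped with those of Tsc2 in KO polysomes and in RNP of both genotypes. In WT polysomes the mean FPKM was 72.3 ± 16.7 for Rheb, 26.9 ± 5.24 for Pdpk1, 23.3 ± 5.42 for Akt1, 8.09 ± 3.47 for Akt2 and 8.04 ± 1.17 for Pik3ca (SD, n = 3). Mtor followed at 5.46 ± 1.39 FPKM, Tsc1 at 2.95 ± 1.46, Tsc2 at 2.26 ± 0.945 and Rptor at 0.216 ± 0.192 (SD, n = 3). The libraries of neighbours in this order overlapped for Pdpk1 and Akt1, for Akt2 and Pik3ca, for Mtor and Tsc1, and for Tsc1 and Tsc2. In WT RNP the order differed in the middle, with Akt1 (23.8 ± 4.72 FPKM) and Akt2 (21.2 ± 2.35) ahead of Pdpk1 (14.9 ± 4.63), and the ranges of Akt1 and Akt2, and of Akt2 and Pdpk1, overlapped. KO polysomes had Pdpk1 at 47.3 ± 7.23 FPKM, clear of Akt1 at 12.8 ± 3.70, and from Akt1 through Akt2, Tsc1 and Mtor to Pik3ca each overlapped with the next in order. KO RNP again had Rheb, Akt1, Akt2 and Pdpk1 first, and Tsc1 (8.38 ± 0.556 FPKM) stood before Pik3ca (6.26 ± 1.52) with overlapping ranges. The precision of these levels follows the fragments behind them, which were estimated at 3 to 58 per library for Rptor, 16 to 159 for Tsc2, 71 to 496 for Akt2, Tsc1 and Mtor together, 105 to 539 for Akt1 and Pik3ca together, 556 to 911 for Rheb and 549 to 2113 for Pdpk1.

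**Figure D1:**
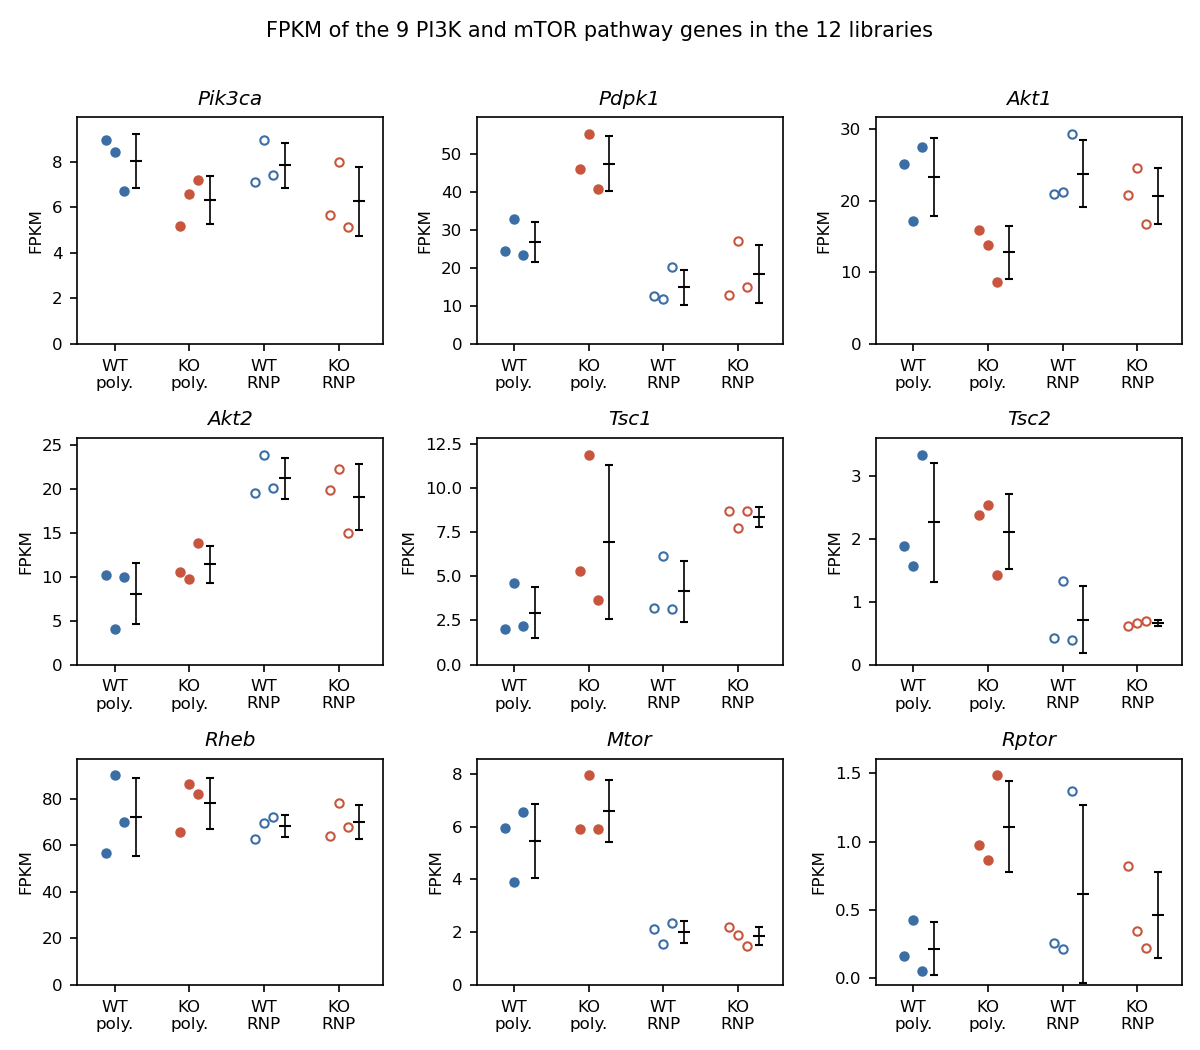
FPKM of each of the 9 genes (vertical axes, each with its own linear scale) in the 12 libraries, by genotype and pool (poly., polysome). Circles are libraries, filled for polysomes and open for RNP, blue for WT and red for KO, and black marks give the mean and SD of 3 libraries. The polysome libraries of Mtor, from 3.89 to 7.94 FPKM, sit above its RNP libraries, from 1.48 to 2.34 FPKM, in both genotypes.

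In the reference annotation (GENCODE, GRCm38) the genes lie at chr3:32397671-32468486 (Pik3ca, plus strand), chr17:24073680-24150924 (Pdpk1, minus), chr12:112653821-112674884 (Akt1, minus), chr7:27591552-27640826 (Akt2, plus), chr2:28641228-28691167 (Tsc1, plus), chr17:24595816-24632630 (Tsc2, minus), chr5:24802823-24842624 (Rheb, minus), chr4:148448611-148557683 (Mtor, plus) and chr11:119602905-119899576 (Rptor, plus). The 3′ UTR of their mRNAs spans 5655 bases in Pik3ca, 5346 in Pdpk1 and 3994 in Tsc1, and from 789 to 1925 bases in the other 6. The exons of Tsc2 overlap those of Pkd1, and the Tsc2 value is uncertain for that reason, with Pkd1 listed at 0 to 1.55 FPKM. The deposited locus of Tsc2 also begins at 24549948, outside the annotated gene and over Pkd1. Exons of Rptor overlap the antisense gene Rptoros, which was listed at 0 in every library. The deposited locus of Rptor runs on to 119928917 and overlaps the protein-coding gene Chmp6, listed at 0 to 1.17 FPKM. The part of Chmp6 in the Rptor value was not tested.

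Translation of stored oocyte mRNAs is known to depend on short motifs near the 3′ end, the cytoplasmic polyadenylation element bound by CPEB and the polyadenylation signal. The 3′ ends of the 4 transcripts on which the results below turn most are shown to place that signal, with AATAAA in capitals, as 30 bases of the annotated transcripts read 5′ to 3′ (GENCODE, GRCm38):
Pdpk1: cggtagtcttgtAATAAAagcatgtagagt
Akt1: ccctccaaattcAATAAAaattgcttttca
Akt2: tacggtacaagcAATAAAgacactcatttc
Mtor: aaattttgtgccAATAAAtgacatcagaat
On the transcript strand, AATAAA or ATTAAA was found in the last 40 bases of 8 of the 9 annotated transcripts, all but that of Rheb, and in 78.9% of 8221 genes. The letters TTTTAT or TTTTAAT, forms of the polyadenylation element, were found in the last 150 bases of 0 of the 9 and of 26.5% of those genes. This search was chosen after the expression values had been seen, and it covers only the annotated ends.

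The first question was whether loss of LSM14B altered the share of these transcripts in either pool. None of the 9 passed the test between KO and WT in polysomes or RNP, and the values of Pdpk1, Akt1, Tsc1 and Rptor stood farthest apart. In polysomes, 8 genes could be tested and 0 were called at an adjusted p from limma under 0.05, where 10.4% of all genes tested were called. An unadjusted p from limma under 0.05 was found for 2 of the 8, and for 2505 of all 9536 genes tested. The libraries did not overlap for 2 of the 8, Pdpk1 and Akt1, against 31.7% of all genes. In RNP, 7 genes were tested and 0 were called, against 20.7% of all genes. The unadjusted p was under 0.05 for 1 of the 7, and for 3385 of all 9931 genes tested. The RNP libraries of 1 of the 7, Tsc1, did not overlap, against 39.2% of all genes. The median log2 change of the members was 0.18 in polysomes, where that of all genes was 0.10, and -0.07 in RNP, where that of all genes was 0.05. Rptor in both pools and Tsc2 in RNP fell under the limit of 1 FPKM in at least 3 libraries and were not tested.

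The second question was whether the polysome share relative to the RNP share differed between genotypes, which was tested as the interaction of genotype and pool. In that test 0 of 8 members were called, against 0.237% of all genes. None of the 8 had an unadjusted p under 0.05, against 1220 of all 10949 genes tested. The third was how the transcripts were distributed between the pools within a genotype. In WT, 1 of 8 members, Akt2, was called as lower in polysomes than in RNP, against 14.7% of all genes called in either direction, and 4 of the 8 did not overlap between pools, against 34.6%. In the KO, 2 of 8, Pdpk1 and Mtor, were called as higher in polysomes, against 29.2% of all genes, and 5 of the 8 did not overlap, against 44.2%. Tsc2, 1 of those 5, met the limit on low values in the KO through the polysome libraries alone, so its separation is no support for a difference. The members' median difference between pools was 0.04 in WT and 0.08 in the KO, where the medians of all genes were -0.09 and -0.04. The WT libraries serve in both the genotype and the pool comparisons, and the KO libraries likewise.

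Pik3ca encodes the catalytic subunit p110-alpha of PI3K. It was listed at 8.95, 8.45 and 6.72 FPKM in WT and 5.17, 6.60 and 7.20 FPKM in KO polysomes. In RNP it was at 7.13, 8.98 and 7.40 FPKM in WT and 5.67, 7.99 and 5.12 FPKM in the KO. The ranges overlapped in both pools, and the KO mean was below the WT mean in each. The log2 change in the KO was -0.31 in polysomes (95% interval -1.14 to 0.53, adjusted p from limma = 0.648) and -0.30 in RNP (interval -0.95 to 0.35, adjusted p = 0.51). Between pools its log2 differences were 0.03 in WT (interval -0.78 to 0.84) and 0.02 in the KO (interval -0.63 to 0.68).

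Pdpk1 encodes the kinase that phosphorylates the activation loop of AKT. In polysomes it was listed at 24.5, 32.9 and 23.3 FPKM in WT and 45.9, 55.1 and 40.8 FPKM in the mutant, and each KO library lay above every WT library. The log2 change was 0.80 (SE 0.23, interval 0.27 to 1.32), with an adjusted p from limma of 0.062. It was not called, and it passed in only 1 of the alternatives tried. Without WT polysome replicate 2, the highest of the WT, the log2 change was 0.95 with an adjusted p from limma of 0.0498. Without KO polysome replicate 2 it was 0.68 with an adjusted p of 0.225. In RNP the values were 12.6, 11.9 and 20.3 FPKM in WT and 12.9, 27.0 and 15.0 FPKM in the KO, with overlap and a log2 change of 0.25 (interval -0.47 to 0.97, adjusted p from limma = 0.634). The polysome-to-RNP ratio differed by 0.55 on the log2 scale (interval -0.34 to 1.44, adjusted p from limma = 0.677).

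All polysome libraries of Pdpk1 lay above all RNP libraries of the same genotype. In the KO the log2 difference between pools was 1.38 (SE 0.27, interval 0.78 to 1.98), a 2.60-fold higher level of FPKM + 1 in polysomes that passed the test (adjusted p from limma = 0.00446). It stayed called under every alternative tried, with adjusted p from 0.00117 to 0.0209. In WT the log2 difference was 0.83 (SE 0.31, interval 0.14 to 1.52) and did not pass (adjusted p from limma = 0.107). The interaction given above is the test of whether the genotypes differ in this, and it was not passed.

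Akt1 and Akt2 encode AKT kinases of the same domain structure, of which AKT1 is known mainly for growth and survival and AKT2 for insulin signalling. Akt1 was listed at 25.1, 17.2 and 27.5 FPKM in WT and 15.9, 13.8 and 8.68 FPKM in KO polysomes, and every KO library lay below every WT library. The log2 change was -0.83 (SE 0.33, interval -1.58 to -0.08), with an unadjusted p of 0.0343 and an adjusted p from limma of 0.152. In RNP the KO values of Akt1, at 20.8, 24.6 and 16.7 FPKM, overlapped with the WT values of 21.0, 21.2 and 29.3 FPKM (log2 change -0.19, interval -0.70 to 0.31, adjusted p from limma = 0.591). Between pools, Akt1 differed by -0.04 in WT (interval -0.69 to 0.60). In the KO, the polysome libraries of Akt1 all lay below the RNP libraries, with a log2 difference of -0.68 (interval -1.28 to -0.08) that did not pass the test (adjusted p from limma = 0.0881).

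Akt2 was listed at 10.2, 4.09 and 9.95 FPKM in WT and 10.5, 9.80 and 13.8 FPKM in KO polysomes. WT polysome replicate 2 was the lowest, and the ranges overlapped, with a log2 change of 0.52 (SE 0.42, interval -0.43 to 1.47, adjusted p from limma = 0.479), and 0.15 without that library. The RNP libraries held 19.6, 23.9 and 20.1 FPKM in WT and 19.9, 22.3 and 15.0 FPKM in the KO, above every polysome library of the same genotype. In WT the log2 difference between pools was -1.37 (SE 0.39, interval -2.25 to -0.49), or 0.386-fold in polysomes, with an adjusted p from limma of 0.0472. That call ended with a pseudocount of 0.1, with the replicate numbers as a block, without the filter on low values and without the intensity trend. It also ended without any 1 of 5 of the 6 WT libraries (adjusted p from limma over all of these from 0.0503 to 0.148). WT polysome replicate 1 was the library that could be left out with the call kept (adjusted p from limma = 0.0327). In the KO the difference was -0.69 (SE 0.24, interval -1.23 to -0.15, adjusted p from limma = 0.0563), and the interaction for Akt2 was 0.68 (interval -0.29 to 1.65, adjusted p = 0.623).

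Since both AKT transcripts are measured in the same library, their log2 ratio within a library is largely free of the library's scaling. In polysomes the ratio of Akt1 to Akt2 was 1.22, 1.84 and 1.38 in WT and 0.552, 0.457 and -0.617 in the KO. All WT libraries lay above all KO libraries, with KO replicate 3 the only one in which Akt2 exceeded Akt1. The mean was 1.48 ± 0.32 in WT and 0.13 ± 0.65 in the KO (SD, n = 3), a difference of -1.35 (two-sided exact permutation test, p = 0.1, the smallest value that 3 against 3 libraries allow). In RNP the ratio was 0.15 ± 0.35 in WT and 0.11 ± 0.05 in the KO (two-sided exact permutation test, p = 0.9), with the libraries of the genotypes overlapping.

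Tsc1 and Tsc2 encode the complex that holds RHEB inactive, TSC1 as the stabilising partner and TSC2 as the GTPase-activating protein. Tsc1 was listed at 3.21, 6.17 and 3.14 FPKM in WT and 8.71, 7.74 and 8.69 FPKM in KO RNP, and each KO library lay above every WT library. The log2 change was 0.91 (SE 0.32, interval 0.18 to 1.63), with an unadjusted p of 0.02 and an adjusted p from limma of 0.0777. Without WT RNP replicate 2, the highest of the WT, it was 1.17 and passed the test (adjusted p from limma = 0.0291). With a library left out the log2 change ran from 0.77 to 1.17, and under the other alternatives from 0.56 to 1.06. The adjusted p from limma over all of these reached 0.202. In polysomes Tsc1 was at 2.02, 4.63 and 2.19 FPKM in WT and 5.30, 11.9 and 3.66 FPKM in the KO, where KO replicate 2 stood high and KO replicate 3 lay under the highest WT library. The polysome log2 change was 0.93 (SE 0.53, interval -0.26 to 2.13, adjusted p from limma = 0.302), and 0.52 without KO polysome replicate 2. The interaction for Tsc1 was 0.03 (interval -1.29 to 1.34), and its differences between pools were -0.40 in WT and -0.37 in the KO, with overlapping ranges.

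Tsc2 was listed at 1.88, 1.56 and 3.33 FPKM in WT and 2.37, 2.53 and 1.42 FPKM in KO polysomes. In RNP it was listed at 0.421, 1.32 and 0.395 FPKM in WT and 0.614, 0.666 and 0.697 FPKM in the KO. The genotypes overlapped in each pool, and in both genotypes every polysome library lay above every RNP library. The polysome log2 change in the KO was -0.05 (interval -1.07 to 0.97, adjusted p from limma = 0.957). Between pools, the log2 difference was 0.93 in WT (interval -0.17 to 2.04, adjusted p from limma = 0.246) and 0.89 in the KO (interval 0.07 to 1.70, adjusted p = 0.099). In the KO, Tsc2 was under 1 FPKM in every RNP library and met the limit on low values through the polysome libraries alone. The KO interval is therefore no support for a difference between pools. Pkd1, whose exons overlap those of Tsc2, was separated between pools in the same way. It was listed at 0.11 to 1.13 FPKM in WT polysomes and 0 to 0.0496 FPKM in WT RNP. In the KO, Pkd1 was at 0.604 to 1.55 FPKM in polysomes and 0 to 0.107 FPKM in RNP. Its part in the Tsc2 values was not tested.

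The log2 ratio of Tsc1 to Tsc2 within RNP libraries was 1.57, 1.63 and 1.57 in WT and 2.59, 2.39 and 2.51 in the KO. The groups did not overlap, at 1.59 ± 0.03 in WT and 2.50 ± 0.10 in the KO (SD, n = 3). The difference of 0.91 had the smallest p that the design allows (two-sided exact permutation test, p = 0.1). It was 0.98 with a pseudocount of 0.1 and 0.57 with one of 5. It rests on Tsc2 values in RNP that were under 1 FPKM in all but 1 library and came from an estimated 16 to 53 fragments. The pseudocount of 1 exceeded Tsc2 in those libraries and narrows the spread, so the small SDs do not show how closely the libraries agreed. In polysomes the ratio was 0.26 ± 0.81 in WT and 1.24 ± 0.55 in the KO, with overlap (two-sided exact permutation test, p = 0.3).

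**Figure D2:**
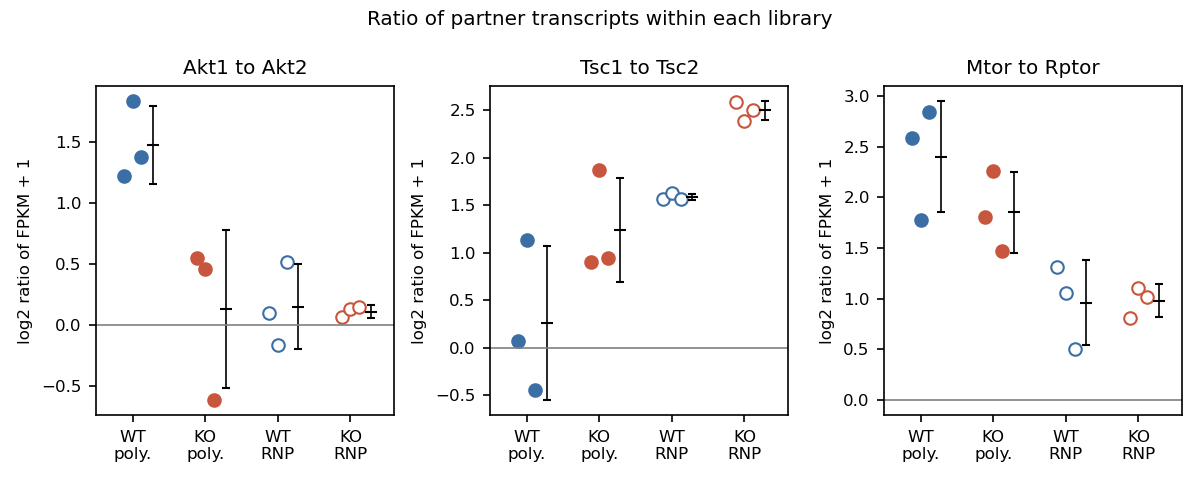
Log2 ratio of FPKM + 1 of Akt1 to Akt2, Tsc1 to Tsc2 and Mtor to Rptor within each library (vertical axes), by genotype and pool (poly., polysome). Circles are libraries, filled for polysomes and open for RNP, and black marks give the mean and SD of 3 libraries. The genotypes stand apart for Akt1 to Akt2 in polysomes (difference -1.35) and for Tsc1 to Tsc2 in RNP (difference 0.91), and overlap in the other comparisons shown. Akt1 in polysomes and Tsc1 in RNP also stand apart alone in these same libraries, so the ratios are no separate support. How often other pairs of genes stand apart was not tested.

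Rheb encodes the GTPase through which the TSC complex acts on mTORC1. It was listed at 56.9, 90.1 and 70.0 FPKM in WT and 65.6, 86.3 and 82.2 FPKM in KO polysomes. In RNP it was at 62.9, 69.4 and 72.2 FPKM in WT and 64.1, 78.1 and 67.7 FPKM in the KO. All 4 groups overlapped. The intervals of Rheb were the narrowest of the members tested in both genotype comparisons, with a log2 change of 0.12 in polysomes (interval -0.36 to 0.60, adjusted p from limma = 0.757) and 0.03 in RNP (interval -0.27 to 0.34, adjusted p = 0.886). The differences between pools were 0.06 in WT (interval -0.40 to 0.52) and 0.15 in the KO (interval -0.19 to 0.49).

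Mtor encodes the kinase of mTORC1 and mTORC2. In polysomes it was listed at 5.95, 3.89 and 6.55 FPKM in WT and 5.92, 7.94 and 5.90 FPKM in the KO, with overlap and a log2 change of 0.24 (interval -0.66 to 1.15, adjusted p from limma = 0.744). In RNP it was listed at 2.12, 1.54 and 2.34 FPKM in WT and 2.18, 1.90 and 1.48 FPKM in the KO, again with overlap and a log2 change of -0.07 (interval -0.86 to 0.72, adjusted p from limma = 0.914). In both genotypes all polysome libraries lay above all RNP libraries. The log2 difference between pools in the KO was 1.41 (SE 0.31, interval 0.70 to 2.11), or 2.65-fold, and passed the test (adjusted p from limma = 0.00901). It stayed called under every alternative tried, with adjusted p from 0.00538 to 0.0384, and it was 1.78 with a pseudocount of 0.1 and 0.75 with one of 5. With the filter of 5 FPKM, Mtor was tested through the KO polysome libraries alone, so that alternative is no support for a difference. In WT the log2 difference between pools was 1.09 (SE 0.44, interval 0.10 to 2.09) and did not pass (adjusted p from limma = 0.136). The genotypes were not shown to differ in it (interaction 0.31, interval -0.73 to 1.35, adjusted p from limma = 0.863).

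Rptor encodes the mTORC1 subunit that recruits substrates. It was listed at 0.164, 0.429 and 0.0554 FPKM in WT and 0.978, 0.866 and 1.49 FPKM in KO polysomes, which correspond to an estimated 3 to 18 and 29 to 46 fragments. Every KO library lay above every WT library (two-sided exact permutation test on log2(FPKM + 1), p = 0.1, the smallest the design allows). Fitted without the filter on low values, the log2 change was 0.80 (SE 0.24, adjusted p from limma = 0.144). In RNP the values were 0.257, 0.216 and 1.37 FPKM in WT and 0.820, 0.343 and 0.221 FPKM in the KO, with WT replicate 3 the highest and full overlap. The ratio of Mtor to Rptor within a library overlapped between genotypes in polysomes (2.40 ± 0.55 in WT and 1.85 ± 0.40 in the KO, two-sided exact permutation test, p = 0.3) and in RNP (0.96 ± 0.42 and 0.98 ± 0.16, p = 0.9). With Rptor near 0, the polysome difference of -0.55 depended on the pseudocount, at -1.80 with 0.1 and -0.08 with 5.

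**Figure D3:**
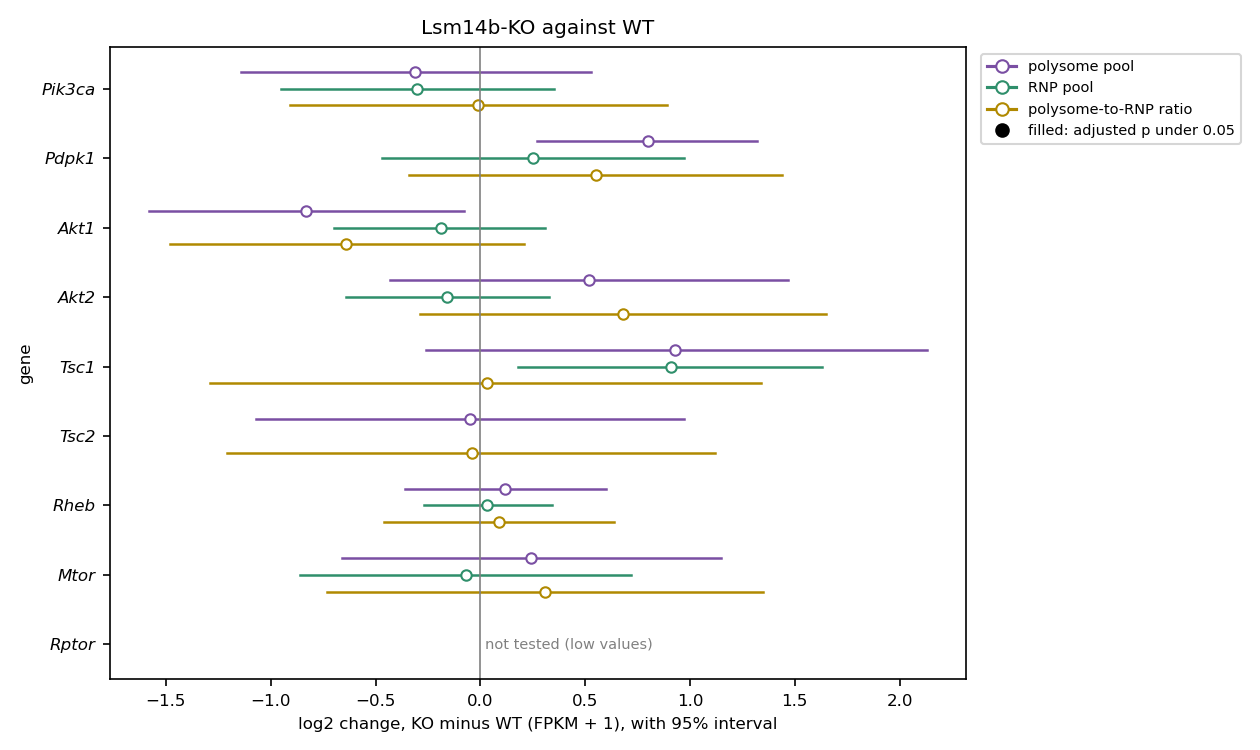
Log2 change of FPKM + 1 in Lsm14b-KO less WT (horizontal axis) for the members that could be tested, in the polysome pool, the RNP pool and the polysome-to-RNP ratio, with 95% intervals from limma. Every point is open, since no adjusted p was under 0.05, and the intervals of Pdpk1 and Akt1 in polysomes and Tsc1 in RNP do not reach 0.

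**Figure D4:**
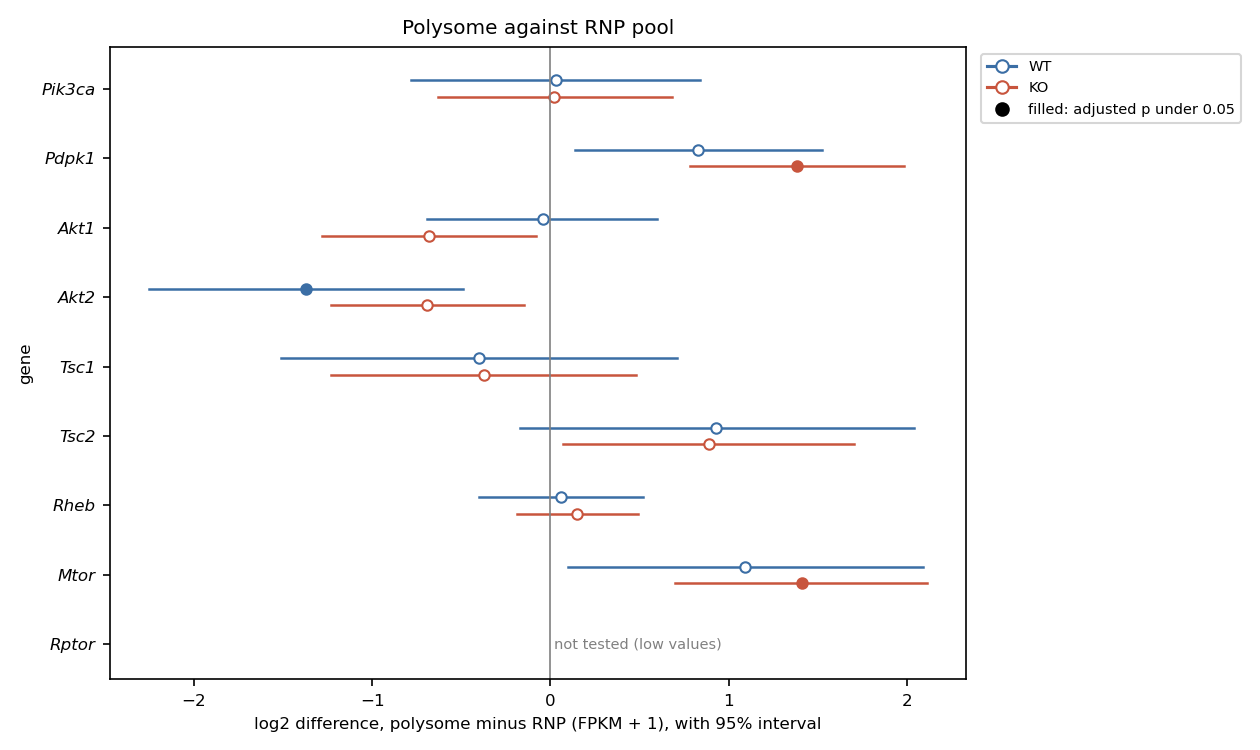
Log2 difference of FPKM + 1 between the polysome and RNP pools (horizontal axis) in WT (blue) and KO (red), with 95% intervals from limma and filled points where the adjusted p was under 0.05. Pdpk1 (1.38) and Mtor (1.41) lie to the polysome side in the KO, and Akt2 (-1.37) to the RNP side in WT.

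The other genes of the pathway were followed in a list of 83, grouped by role. In KO against WT polysomes, 66 were tested, 4 rose and 1 fell, 7.58% of those tested against 10.4% of all genes, and the median log2 change was 0.22 against 0.10. Eif4e, the cap-binding protein released by mTORC1 signalling, was listed at 262, 180 and 189 FPKM in WT and 292, 354 and 374 FPKM in the KO, a log2 rise of 0.70 (SE 0.17, adjusted p from limma = 0.0366). Kit, the receptor tyrosine kinase upstream of PI3K in oocytes and also 1 of the oocyte markers, rose by 0.69 (SE 0.17, adjusted p from limma = 0.0387), and Tti1, a cofactor in mTOR complex assembly, by 0.90 (SE 0.23, adjusted p = 0.0437). The other of the 4 was Maf1, a repressor of RNA polymerase III that mTORC1 phosphorylates, with 7.90, 8.69 and 5.51 FPKM in the KO libraries and a listed value of 0 in all 3 of WT. It met the limit on low values through the KO libraries alone, so it had to differ once tested and its call is no support for a rise. Ddit4, which encodes the mTORC1 inhibitor REDD1, was at 31.2, 38.7 and 29.9 FPKM in WT and 12.7, 15.2 and 8.83 FPKM in the KO, and fell by 1.39 on the log2 scale (SE 0.29, adjusted p from limma = 0.0194). Of the 66 genes tested, 17 did not overlap between KO and WT, against 31.7% of all genes. The 5 called genes are among the 17, but they were picked by their difference in these same libraries. The number called fell to 0 without KO polysome replicate 3, to 1 without KO polysome replicate 2, and to between 2 and 3 without any other library of the pool.

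In RNP, 63 genes of the list were tested, 6 rose and 4 fell in the KO, 15.9% against 20.7% of all genes, with a median of 0.08 against 0.05. Eif4e again had higher values, at 431, 444 and 411 FPKM in the KO against 252, 269 and 234 FPKM in WT, and rose by 0.77 (SE 0.09, adjusted p from limma = 0.000476). Ddit4 was at 30.7, 22.2 and 27.0 FPKM in the KO against 39.4, 56.0 and 51.8 FPKM in WT, and fell by 0.85 on the log2 scale (SE 0.20, adjusted p from limma = 0.0145). These were the genes of the list called in the same direction in both pools. The relative of RHEB, Rhebl1, rose by 2.22 (SE 0.50, adjusted p from limma = 0.0131), and Lamtor5, a subunit of the Ragulator complex that anchors mTORC1 to lysosomes, rose by 0.67 (SE 0.14, adjusted p = 0.0111). Nprl3, a subunit of the GATOR1 complex that inhibits mTORC1 when amino acids are scarce, fell by 1.56 on the log2 scale (SE 0.36, adjusted p from limma = 0.0151). The count of 10 fell to 4 without KO RNP replicate 2 and to 4 without KO RNP replicate 3. In the interaction test 70 genes were tested and 0 were called by limma. An unadjusted p under 0.05 was found for 10 of the 70, and for 1220 of all 10949 genes tested. A genotype difference in the polysome-to-RNP ratio was therefore not shown for any gene of the list.

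Between the pools in WT, 8 of 65 tested genes of the list were higher and 2 lower in polysomes, 15.4% against 14.7% of all genes. Lamtor1, the Ragulator subunit that anchors the complex to the membrane, was at 322, 337 and 263 FPKM in polysomes and 130, 180 and 145 FPKM in RNP, a log2 difference of 1.02 (SE 0.16, adjusted p from limma = 0.0041). Lamtor2 differed by 1.92 (SE 0.36, adjusted p from limma = 0.00927) and the Rag GTPase gene Rraga by 1.49 (SE 0.29, adjusted p = 0.0104), so 3 of the 14 tested genes of the amino acid branch were called as higher in polysomes and 0 as lower, while 7 of the 14 had a log2 difference below 0. Rps6, a ribosomal protein that every cell uses, is also among the 8, with 5.64, 4.98 and 9.75 FPKM in polysomes and a listed value of 0 in all 3 RNP libraries. An exact 0 can be a failed estimate, and Rps6 met the limit on low values through the polysome libraries alone, so its call is no support for a difference. Pik3cd, another catalytic subunit of PI3K, was lower in polysomes, with a log2 difference of -0.79 (SE 0.15, adjusted p from limma = 0.0103). Without WT RNP replicate 2, 6 genes were called in place of 10.

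In the KO, 13 of 63 tested genes of the list were higher and 7 lower in polysomes than in RNP, 31.7% against 29.2% of all genes, with a median of 0.37 against -0.04. Pik3r4, the regulatory subunit of class III PI3K, had values of 76.3, 67.3 and 66.6 FPKM in polysomes and 24.3, 17.4 and 22.0 FPKM in RNP, a log2 difference of 1.69 (SE 0.17, adjusted p from limma = 0.000117). Kit differed by 1.34 (SE 0.16, adjusted p from limma = 0.000342) and Lamtor1 by 0.72 (SE 0.11, adjusted p = 0.00124). Prr5, a subunit of mTORC2, lay on the RNP side with 16.8, 19.7 and 13 FPKM in polysomes and 67.2, 84.5 and 72.6 FPKM in RNP, a log2 difference of -2.12 (SE 0.19, adjusted p from limma = 6.19e-05). Lamtor5 was also lower in polysomes, with a log2 difference of -0.91 (SE 0.10, adjusted p from limma = 0.000252). Among mTORC1 targets and translation outputs, 4 of 11 tested genes were higher in polysomes and 1, Eif4e, was lower (-0.34, adjusted p from limma = 0.0389). Of the lipid and AKT phosphatases, 0 of 4 tested passed. The unadjusted p from limma was under 0.05 for 3 of the 4, and for 3960 of all 9851 genes tested.

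**Figure D5:**
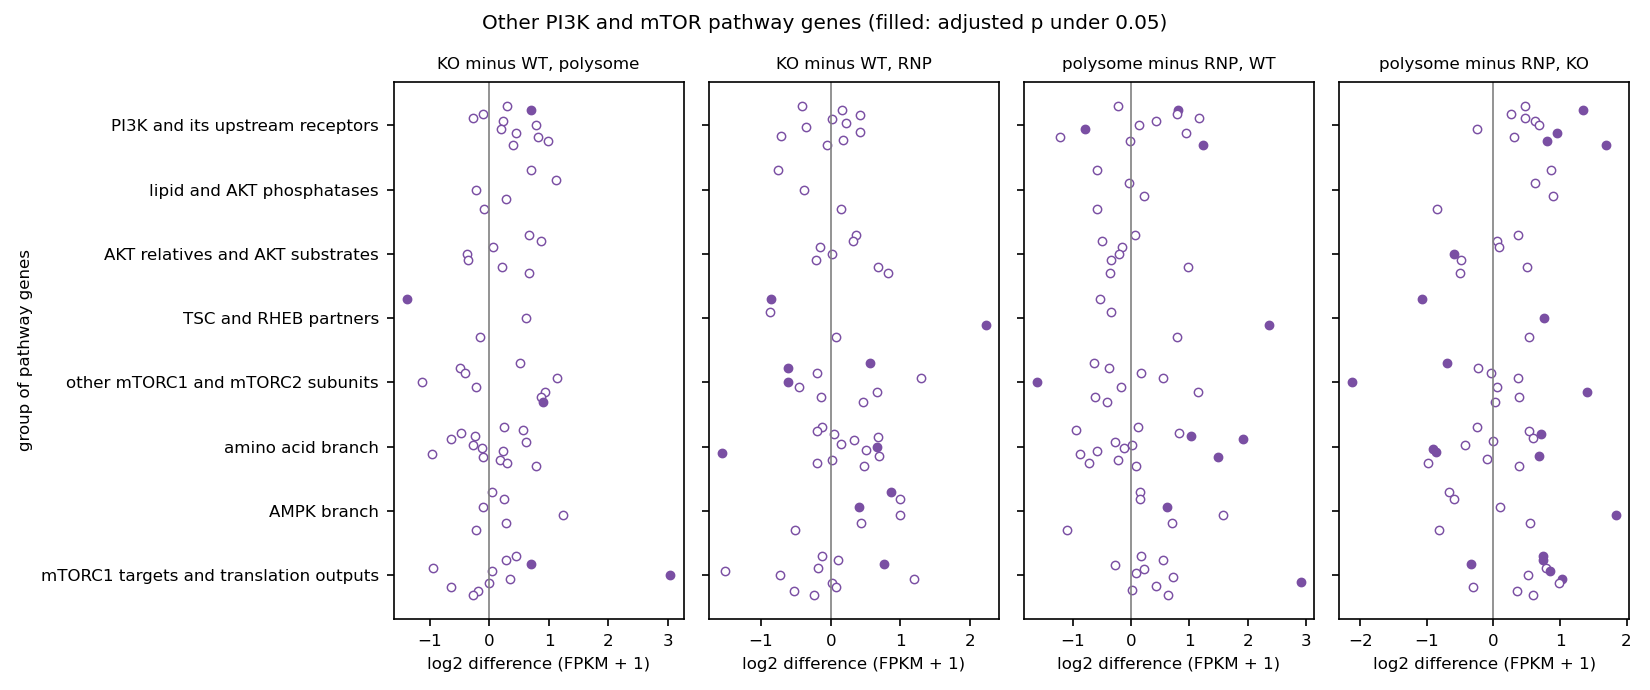
Log2 differences of FPKM + 1 (horizontal axes) for the tested genes of the list of 83 other pathway genes, by role (vertical axis), for KO less WT in each pool and for polysome less RNP in each genotype. Each point is a gene, filled where the adjusted p from limma was under 0.05, which holds for 5, 10, 10 and 20 genes from left to right.

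Finally, the gene whose pattern over the 12 libraries was nearest to each member was looked up among the 6674 genes whose mean reached 5 FPKM, by the root mean square difference of log2(FPKM + 1) after each gene was centred on its own mean. The nearest gene was Cog4 for Pik3ca (0.13), Ipo9 for Pdpk1 (0.24), Tctex1d1 for Akt1 (0.19), Zc3h3 for Akt2 (0.24) and Nr2e3 for Tsc1 (0.29). It was Psmd2 for Tsc2 (0.20), Ywhaq for Rheb (0.07), Nedd8 for Mtor (0.16) and Arhgap11a for Rptor (0.19). The members' own centred profiles had a root mean square from 0.19 for Rheb to 0.70 for Pdpk1, so the small distance of Rheb goes with a nearly flat profile. The means of Ipo9, at 19.7 and 31.9 FPKM in WT and KO polysomes and 10.6 and 12.1 FPKM in WT and KO RNP, run in the same order as those of Pdpk1. The points share libraries and scaling, and these distances are descriptions.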

How the data were processed

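RNA of the RNP and polysome pools of GV oocytes was amplified by the Smart-seq2 procedure and sequenced, with 3 libraries for each genotype and pool. Groups and replicate numbers were taken from the sample titles. The labels and the series' design text differ on the densest sucrose, 50% and 55%. Nothing in the labels says that replicates came from separate animals, so p-values measure the spread between libraries.

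The authors trimmed the reads, aligned them to mm10 with tophat2 2.0.13 and deposited FPKM values per gene symbol and library from cufflinks 2.2.1. The annotation release is not given in the sources used here. The deposited table also holds 54 columns of the authors' comparisons (log2 changes, p and q values), which were not used. No column of per-sample values was left out.

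FPKM values are not counts. They were tested with limma 3.58.1 in R 4.3.3 on log2(FPKM + 1), with variances moderated by empirical Bayes along an intensity trend, without a replicate block, on genes with at least 1 FPKM in at least 3 libraries of the comparison, fitted on the whole table with Benjamini-Hochberg adjustment and a threshold of 0.05. The pseudocount understates changes of low genes. The 5 comparisons were KO against WT in each pool, their interaction over all 12 libraries, and polysome against RNP in each genotype. Intervals are 95% intervals of the moderated test. Ratios of partner transcripts within a library, and Rptor, were compared by exact permutation tests. Depth was estimated from steps of the lowest FPKM values, with the transcript length less 200 bases, and intervals do not include error of that estimate. Chromosome positions, UTR lengths and sequences came from GENCODE (GRCm38, the same assembly as mm10), where transcripts were matched within 300 bases of the deposited locus.

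The members and gene lists were chosen with earlier results of these data known. All members were named in each comparison, with up to 5 called genes of the list with the smallest adjusted p and, for each member, the nearest gene. Other genes named here (Eif4e between pools, Pkd1, Rptoros, Chmp6, Mir300 and markers) were added after their values were seen. The scripts were tested on simulated data. Alternatives were other pseudocounts (0.1 and 5), no filter, a filter of 5 FPKM, rescaling to the same median, quantile normalization, no intensity trend, a replicate block and leaving out each library. Python 3.11.15, pandas 2.3.3, numpy 2.4.6, scipy 1.17.1 and matplotlib 3.10.9 were used.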

Additional observations from a re-analysis of the deposited data

How the results depend on the processing

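The 9 transcripts were called alike between KO and WT under all alternatives except 2 that left out a library, and Pdpk1 and Mtor stayed called between pools in the KO under each. With the filter of 5 FPKM, Mtor was tested between those pools through the polysome libraries alone, so that alternative is no support for its difference. The number of members called was 0 to 1 in polysomes and 0 to 1 in RNP for KO against WT when each library was left out. Between pools in WT it was 0 to 1 with libraries left out, and 0 with a pseudocount of 0.1, without the filter, with the replicate block and without the intensity trend. Between pools in the KO it was 4 under quantile normalization, which added Akt2 and Tsc2. Tsc2 met the limit on low values there through the polysome libraries alone, so its call is no support for a difference. Of the list of 83 genes, the polysome comparison called 2 without the filter, 2 with the replicate block and 2 without the trend, and 0 to 3 with a library left out. In RNP this was 4 to 11, and between pools in WT it was 3 without the trend and 6 to 10 with a library left out.

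Values near 0 changed sign. With a library left out, the log2 change in polysomes ran from -0.20 to 0.18 for Tsc2 and from -0.03 to 0.29 for Rheb. In RNP it ran from -0.06 to 0.47 for Pdpk1, from -0.05 to 0.09 for Rheb and from -0.18 to 0.03 for Mtor. The interaction ran from -0.12 to 0.16 for Pik3ca, from -0.39 to 0.34 for Tsc1, from -0.28 to 0.18 for Tsc2 and from -0.07 to 0.26 for Rheb. Between pools in WT the range was -0.04 to 0.14 for Pik3ca, -0.17 to 0.15 for Akt1 and -0.11 to 0.22 for Rheb, and in the KO it was -0.09 to 0.19 for Pik3ca. The ratio of Akt1 to Akt2 in RNP differed between genotypes by -0.19 to 0.15 and that of Mtor to Rptor by -0.21 to 0.20. The interaction for Tsc1 was -0.02 with a pseudocount of 5 and -0.10 under quantile normalization, that for Tsc2 was 0.04 under quantile normalization, and the WT pool difference of Rheb was -0.01 there. The cause was not tested.

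Same-numbered libraries did not deviate together (correlations from -0.0207 to 0.0255 over 10949 genes), so the numbers were not taken to pair the samples, and the replicate block changed no call of a member other than that of Akt2 between pools in WT (adjusted p from limma = 0.0775). Over all genes, the polysome comparison called 989, and 508 without the intensity trend or 383 to 790 with a library left out. RNP called 2057 and 1255 to 1911, the interaction 26 and 0 to 46, with 6 without the trend, 11 under the replicate block and 0 with the block set within each genotype, the pools in WT 1406, 728 without the trend and 780 to 1212, and the pools in the KO 2881 and 2030 to 2909. Depth limits Rptor and Tsc2 most, with as few as 3 and 16 estimated fragments in a library.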
